A study of Mus musculus with 18 samples.

Results

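Resiquimod, a synthetic imidazoquinoline that activates Toll-like receptor 7 (Tlr7), was given before allergen challenge to mice of the inbred strains A/J and C57BL/6, and the question here was which lung transcripts answered it differently in the 2 strains. The strain difference of a gene is the A/J change (resiquimod plus ovalbumin minus ovalbumin) minus the same change in C57BL/6, on the log2 scale. A negative value means that the change was lower in A/J. It was measured with 12 of the 18 arrays of the series, 3 in each of 4 groups, for 45037 probe sets. Of these, 34945 name a single gene, and together they name 18193 genes. All mice were males aged 16 weeks, and their whole lungs were hybridised to Affymetrix mouse expression arrays, each labelled a biological replicate without a statement on pooling. All had been sensitized with ovalbumin, a protein of egg white used as an experimental allergen: 100 µg with alum was injected intraperitoneally 3 times at weekly intervals. The A/J ovalbumin and C57BL/6 ovalbumin groups then inhaled a 1% ovalbumin aerosol for 30 min on each of 3 days. The groups A/J resiquimod plus ovalbumin and C57BL/6 resiquimod plus ovalbumin inhaled the same aerosol and received 100 µg resiquimod (also S-28463 or R-848) intraperitoneally 24 h before each challenge. The other 6 arrays, 3 of each strain, are of sensitized mice that inhaled PBS; they entered the estimate of spread and give a baseline. No group received resiquimod without ovalbumin and no vehicle injection is described, so an effect of the drug alone, of the injections and of the drug on the allergen response cannot be told apart.

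Tlr7 is an endosomal receptor for single-stranded RNA that signals through the adaptor Myd88 and the transcription factors Irf7 and NF-kappaB. In the mouse it is found in plasmacytoid dendritic cells, B cells and macrophages, and agonists lead to the release of type I interferon and of cytokines that activate natural killer (NK) cells and type 1 T cells. Ovalbumin challenge of a sensitized mouse produces the opposite, type 2 kind of inflammation, with eosinophils, mucus and alternatively activated macrophages. A/J mice are known for strongly reactive airways and C57BL/6 mice for weakly reactive ones.

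A few arrays stood apart within their groups, and this touches every count of calls. Transcripts of squamous epithelium (the mean of 7 genes such as Krt4 and Krt13) were high on A/J ovalbumin arrays 1 and 3, A/J resiquimod array 1, C57BL/6 ovalbumin array 1 and C57BL/6 resiquimod array 2, between 7.33 and 8.40, against 3.88 to 4.63 on the other 7 of the 12. Liver transcripts were present on A/J ovalbumin array 1 and A/J resiquimod array 3, where Alb, serum albumin, read 10.06 and 11.33 against at most 4.51 elsewhere. C57BL/6 ovalbumin array 2 stood apart in control probe sets for the 3' and 5' ends of a transcript. Its 3' minus 5' gap was 0.56 for Gapdh, against at most 0.10 on any other array. For actin the gap was 0.67, against at most 0.57. The part of this gap in the calls was not tested. The mean of 16 alveolar type 2 cell genes lay between 11.2 and 11.6 on all 12 arrays, so the lung's own markers were high throughout. In whole lung, fewer cells of a type and less RNA in each of them cannot be told apart.

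The strains shared most of the response to resiquimod, and the strain difference concerned a small part of the genes. Across the 18193 genes the A/J and C57BL/6 changes, which share no array, had a Pearson r of 0.616 and a Spearman rho of 0.377; genes are not independent replicates. Of the 1777 genes that changed in A/J, 1529 had the same sign in C57BL/6. A strain difference was called in 378 of 45037 probe sets (0.839%; limma with Benjamini-Hochberg adjustment, threshold 0.05). Of these, 119 were higher (0.264%) and 259 lower (0.575%) in A/J. An unadjusted p under 0.05 was found for 5926 of the 45037 probe sets. With the mean of a gene's probe sets it was found for 2767 of 18193 genes. Counts of list members at this level, given below, are to be set against these shares. By genes, 65 of 18193 were higher in A/J (0.357%) and 160 lower (0.879%), 225 in all (1.24%). The median size of a called gene's difference was 0.76, while the median over all genes was 0.007. A total of 54 genes differed at least 2-fold, 42 of them lower in A/J.

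In most called genes 1 strain changed and the other did not pass the test. Resiquimod raised 1055 genes in C57BL/6 (5.80%) and 796 in A/J (4.38%), and it lowered 836 in C57BL/6 (4.60%) and 981 in A/J (5.39%). Among the 160 genes lower in A/J, 91 rose in C57BL/6 with no call in A/J, 35 fell in A/J with no call in C57BL/6, 12 rose in both strains but less in A/J, 12 fell in both but more in A/J, and 10 fell in A/J while rising in C57BL/6. Among the 65 genes higher in A/J, 44 rose in A/J with no call in C57BL/6 and 17 fell in C57BL/6 with no call in A/J, and 2 rose in A/J while falling in C57BL/6.

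The number of calls rested on individual arrays. Without 1 array the 378 called probe sets became 163 (A/J ovalbumin 1), 151 (A/J ovalbumin 3), 636 (A/J resiquimod 1), 154 (A/J resiquimod 3), 234, 178 and 213 (C57BL/6 ovalbumin 1, 2 and 3) and 180, 250 and 138 (C57BL/6 resiquimod 1, 2 and 3). A core of 73 genes (0.401%), 16 higher and 57 lower in A/J, was called in each of the 18 fits that left out 1 array. Every called gene named from here on belongs to that core unless the number of fits that lost its call is given. Without the 2 arrays with liver transcripts 83 probe sets were called, with 42 of the 73 core genes among them. Without the 8 arrays of the series with squamous transcripts, which leaves 1 A/J ovalbumin array and 2 in each of the other 3 groups, 6 probe sets were called, and the 5 genes among them were Klra7, Klra8, Slc13a3, Glp1r and Cd300ld. All 225 genes kept their sign in both of these fits. Both reuse arrays by which these genes were picked, so a kept sign was likely beforehand and is no separate support.

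**Figure D1:**
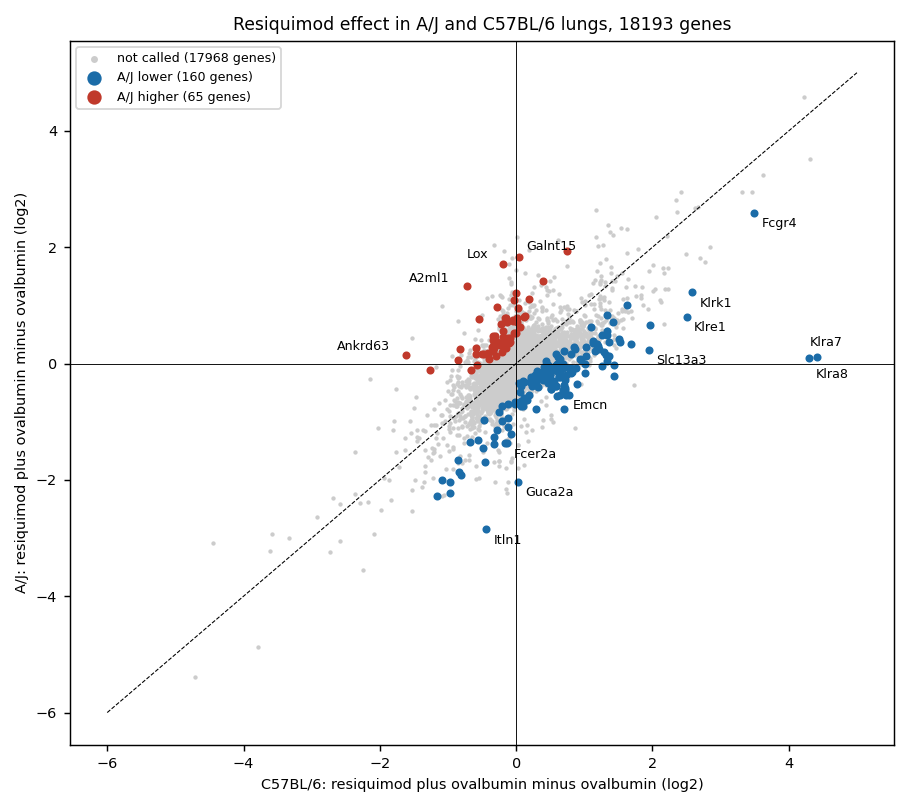
Change with resiquimod in C57BL/6 (x axis) against the change in A/J (y axis), both log2, for 18193 genes, each from 3 against 3 arrays. The dashed line marks equal change; the 160 genes lower in A/J (blue) lie below it, with Klra7 and Klra8 at 4.42 and 4.29 on the x axis and near 0 on the y axis, and the 65 genes higher in A/J (red) lie above it.

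NK cell receptor genes held the largest strain differences. NK cells recognise target cells through germline-encoded lectin-like receptors, many of them neighbours in the NK gene complex. Of 13 measured genes on the NK receptor list 5 were called, all lower in A/J: Klra7, Klra8, Klre1, Klrk1 and Klrb1a. Their median strain difference was -0.61, with 10 of 13 below 0. In C57BL/6 11 of the 13 rose with resiquimod and in A/J 9.

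Klra8 encodes Ly49H, an activating receptor of the Ly49 family. It read 3.43, 3.11 and 3.15 in C57BL/6 ovalbumin lungs and 7.65, 7.26 and 7.66 after resiquimod. In A/J it read 2.61, 2.55 and 2.29 with ovalbumin and 2.63, 2.45 and 2.66 with resiquimod. The C57BL/6 groups were fully separated, while the A/J groups overlapped at a level among the weakest of the array. The strain difference of -4.20 ± 0.19 (SE, n = 3 arrays per group) had a limma Benjamini-Hochberg adjusted p of 2.9e-09.

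Klra7, an inhibitory Ly49 receptor, behaved alike, rising by 4.42 ± 0.10 in C57BL/6 with 0.11 ± 0.10 in A/J. Of its 2 probe sets only 1 gave a difference of this sign. All 9 A/J arrays, PBS included, lay between 2.34 and 2.74 for Klra7. The Ly49 family is known to differ in gene content between inbred strains, and its members are near-identical in sequence. Whether these probes match the A/J family was not tested, so the absence of a rise there is an absence of signal for these probe sets.

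Klrk1 and Klre1 rose in both strains, by less in A/J. Klrk1 encodes NKG2D, an activating receptor for stress-induced ligands. It read 4.10, 4.18 and 4.30 (ovalbumin) and 5.65, 5.61 and 5.0 (resiquimod) in A/J, and 4.69, 4.58 and 4.91 (ovalbumin) and 7.07, 7.39 and 7.47 (resiquimod) in C57BL/6. Resiquimod and ovalbumin arrays did not overlap in either strain, and all C57BL/6 resiquimod arrays lay above all A/J ones. The difference was -1.36 ± 0.22 (limma adjusted p = 0.0085), which is a rise 2.56-fold smaller in A/J. Klre1, which forms heterodimers with other lectin-like receptors, rose by 0.80 ± 0.14 in A/J and 2.51 ± 0.14 in C57BL/6, a difference of -1.70 ± 0.19 (limma adjusted p = 0.00041). Klrb1a, of the NKR-P1 family, differed by -0.78 ± 0.14 (call lost without A/J ovalbumin 1, A/J resiquimod 3, or C57BL/6 resiquimod 1 or 3, with values of -0.68, -0.77, -0.74 and -0.73).

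The other 8 NK receptors on the list were not called, with 3 differences above 0 and 5 below, and 7 of all 13 had an unadjusted p under 0.05. The 3 above 0 were Klrd1, Ncr1 and Klrc1. Klrd1, the CD94 chain, rose by 2.68 ± 0.16 in A/J and 2.63 ± 0.16 in C57BL/6, and its difference of 0.06 had a 95% interval from -0.42 to 0.53. Ncr1, the NKp46 receptor that marks NK cells, rose by 2.60 ± 0.14 and 2.36 ± 0.14, with an interval of the difference from -0.19 to 0.66. Klrc1, an NKG2A chain, rose by 1.50 ± 0.13 and 1.48 ± 0.13, with an interval from -0.36 to 0.40. None of these 3 was called, and the intervals do not reach the difference of Klrk1 or Klre1; the second, weaker probe set of Klrc1 differed the other way and was called. Of the 5 below 0, Cd244a (2B4), a receptor of the SLAM family, differed by -0.65 ± 0.25 (limma adjusted p = 0.26), and Klrg1, a receptor of mature NK and effector T cells, rose by 1.89 ± 0.15 in A/J and 2.50 ± 0.15 in C57BL/6 (limma adjusted p of the difference 0.19). Klrc2, Klra1 and Klrb1f differed by -0.21, -0.15 and -0.07.

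S1pr5, the sphingosine-1-phosphate receptor through which NK cells leave bone marrow and lymph nodes, was among the 15 genes with the largest negative differences. It read 3.31, 2.98 and 3.23 (ovalbumin) and 4.09, 4.04 and 3.37 (resiquimod) in A/J, against 3.84, 3.56 and 3.51 (ovalbumin) and 5.75, 5.51 and 5.52 (resiquimod) in C57BL/6. In A/J the third resiquimod array sat just above the ovalbumin arrays, whereas in C57BL/6 the groups lay far apart. The difference was -1.30 ± 0.22 (limma adjusted p = 0.011).

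Of 18 cytotoxic effector genes 10 rose with resiquimod in A/J and 13 in C57BL/6. The median strain difference was -0.47, with 14 of 18 below 0 and 10 at an unadjusted p under 0.05, and 2 were called. Gzma, granzyme A, a granule protease of killer lymphocytes and one of the 4 above 0, rose from 5.74, 5.38 and 5.45 to 10.19, 10.22 and 9.92 in A/J. In C57BL/6 it rose from 7.59, 7.23 and 7.63 to 11.76, 11.63 and 11.72. Levels were higher in C57BL/6 in either condition, yet the strain difference in the change was 0.37 ± 0.19, with a 95% interval from -0.03 to 0.77 and no call (limma adjusted p = 0.42). Gzmb, granzyme B, rose by 3.52 ± 0.18 in A/J and 4.31 ± 0.18 in C57BL/6 (limma adjusted p of the difference 0.17), and Prf1, perforin, by 3.24 ± 0.20 and 3.63 ± 0.20 (limma adjusted p = 0.61). Both called genes were lower in A/J and lost their call without single arrays. They were Gzmk, granzyme K, which rose in C57BL/6 and read 0.04 ± 0.20 for the change in A/J (difference -1.29 ± 0.28, lost in 16 of 18 fits, values from -1.65 to -1.09), and Il2rb, a receptor chain for interleukins 2 and 15 (-0.63 ± 0.13, lost in 11, values from -0.74 to -0.57).

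On A/J resiquimod array 3, one of those with liver transcripts, the NK receptor list mean was 4.42 against 4.69 and 4.68 on its fellows. Without that array the list's median difference became -0.34, and without both liver-transcript arrays it was -0.39 with 4 of the 5 genes still called. The part of these arrays in the size of the difference was not tested further.

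**Figure D2:**
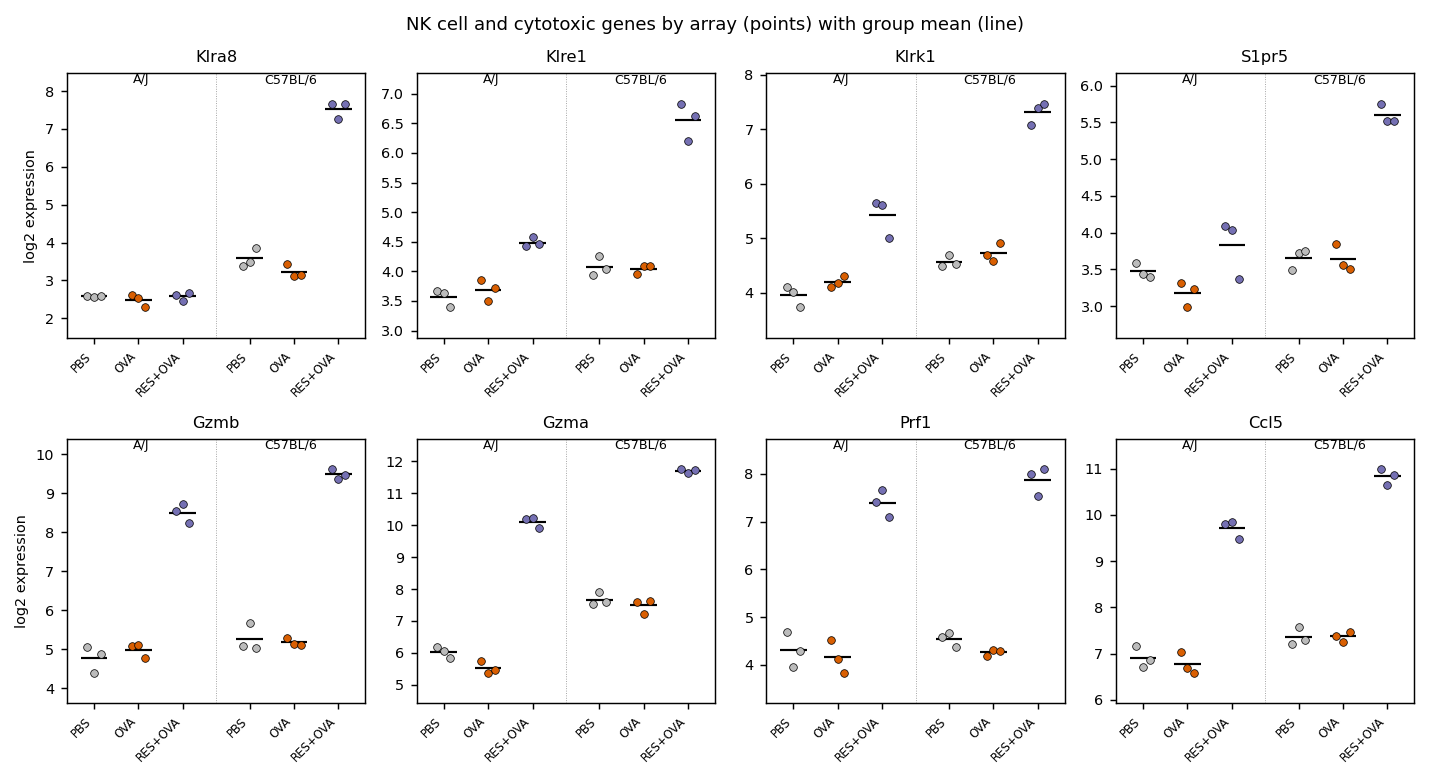
Log2 expression of 8 NK cell and cytotoxic genes on the 18 arrays (points; OVA, ovalbumin; RES+OVA, resiquimod plus ovalbumin; lines, means of 3 arrays; each panel has its own axis). Klra8 rises only in the C57BL/6 panel, Klre1, Klrk1 and S1pr5 rise less in A/J, and Gzmb, Gzma, Prf1 and Ccl5 rise in both strains.

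The cell cycle list, the longest with 39 measured genes, held the largest number of called genes, most of them genes of DNA replication. By share the NK receptor list (5 of 13) stood above it (11 of 39). That order leans on Klra7 and Klra8, whose probes were not tested for a match to A/J. Cells that enter S phase load the Mcm2 to Mcm7 helicase onto origins with Cdc6 and Cdt1, and E2F factors drive transcription of these genes. Of 39 measured cell cycle genes 11 were called, all with a lower change in A/J: Uhrf1, Cdc6, Mcm5, Chek1, Mcm3, Tk1, Cdt1, Mcm6, Mcm2, Mcm4 and Pcna. The 11 act in DNA synthesis, its checkpoint or the copying of chromatin marks. An unadjusted p under 0.05 was found for 28 of the 39, mitotic genes among them, such as Tpx2, a spindle factor (-0.84 ± 0.23, limma adjusted p = 0.11), and Cenpe, a kinetochore motor (-0.80 ± 0.24, limma adjusted p = 0.14). A split between replication and mitotic genes was not tested. The difference was below 0 for all 39 genes, with a median of -0.51 against 0.007 over all genes. In C57BL/6 32 of the 39 rose with resiquimod (median 0.69). In A/J 2 rose (Mki67 and Ccnb2) and 2 fell (Uhrf1 and Mcm3), with a median of 0.10.

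The 2 ovalbumin groups started from a similar level of these genes. The mean of the 39 genes lay between 5.67 and 6.02 in A/J and between 5.77 and 6.04 in C57BL/6 after ovalbumin. After resiquimod it was 6.12, 5.88 and 5.90 in A/J, overlapping its ovalbumin group, and 6.54 to 6.64 in C57BL/6, above every other array.

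Uhrf1, which recruits maintenance DNA methylation to replicated DNA, went in opposite directions. It read 6.36, 6.10 and 6.34 (ovalbumin) and 5.93, 5.76 and 5.50 (resiquimod) in A/J, and 5.96, 6.39 and 6.09 (ovalbumin) and 6.64, 6.78 and 6.93 (resiquimod) in C57BL/6. The groups did not overlap in either strain. The difference was -1.18 ± 0.18 (limma adjusted p = 0.0067), from a fall by 0.54 ± 0.13 in A/J and a rise of 0.64 ± 0.13 in C57BL/6.

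The helicase subunits differed by similar amounts. Mcm5 read 7.58, 7.37 and 7.71 (ovalbumin) and 7.43, 7.35 and 7.05 (resiquimod) in A/J, which overlap. In C57BL/6 it read 7.36, 7.69 and 7.60 with ovalbumin and 8.22, 8.17 and 8.41 with resiquimod, which do not. Its difference was -0.99 ± 0.17 (limma adjusted p = 0.013), that of Mcm3 was -0.88 ± 0.14 with all 5 of its probe sets below 0, and that of Mcm6 was -0.70 ± 0.11. These 3 and Uhrf1 are core genes. The calls of Mcm2, Mcm4, Cdc6, Cdt1, Chek1, Tk1 and Pcna were lost in 5 to 15 of the 18 fits, and 3 of the 5 probe sets of Chek1 had the same sign.

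Mki67, the proliferation marker Ki-67, rose in both strains, by 0.68 ± 0.13 in A/J and 0.99 ± 0.13 in C57BL/6, and was not called. Clspn, an adaptor of the replication checkpoint (-0.94 ± 0.16), Fignl1, a recombination factor (-0.95 ± 0.17), and Rfc5, a subunit of the clamp loader (-0.69 ± 0.12), lie outside the list and were picked after their values were seen; they are core genes too, and 1 of the 2 probe sets of Fignl1 had the opposite sign. The list's median stayed between -0.67 and -0.45 in the fits without 1 array and was -0.46 without the liver-transcript arrays, where Uhrf1 alone of the 11 was still called.

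**Figure D3:**
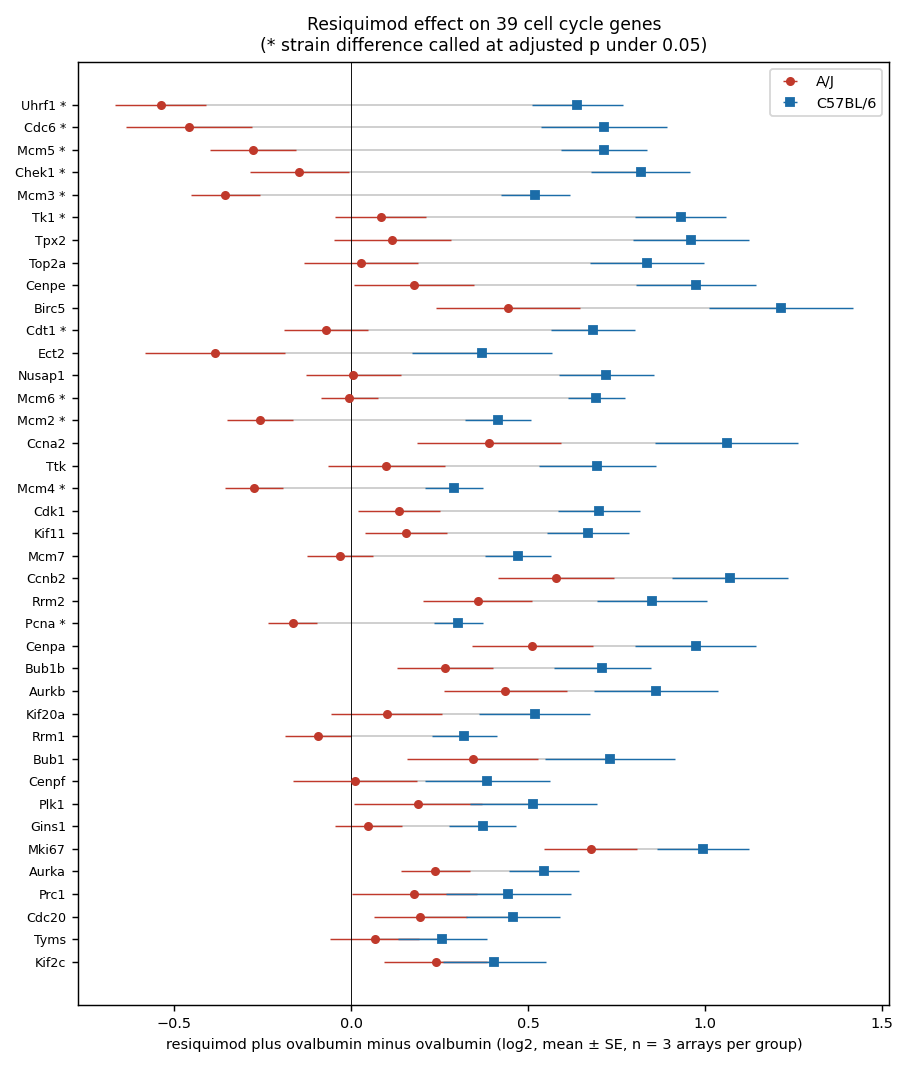
Change with resiquimod (log2, ± SE, 3 against 3 arrays) of 39 cell cycle genes in A/J (circles) and C57BL/6 (squares), ordered by the strain difference. Each square lies to the right of its circle; the 11 genes marked with an asterisk were called, and Uhrf1 shows the widest gap.

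Promoters of the replication genes were read for the E2F letters named after these factors. The windows are the 250 bases upstream of the RefSeq start (GRCm38.p6), searched on both strands for TTTCCCGC or TTTGGCGC, letters chosen after the results were known. A match was found for 332 of the 14367 genes with a promoter entry (2.3%), for 6 of 124 genes called lower in A/J (4.8%), and for 4 of the 33 cell cycle genes with an entry (12.1%). Among the 10 called cell cycle genes with an entry it was found for 3 (30.0%), Mcm6, Mcm5 and Cdc6. These 3 are shown because they belong to the group that moved together, with the matches in capitals; in Mcm5 and Cdc6 the match is on the other strand and reads reversed.
Mcm6, chr1:128359706-128359955, minus strand: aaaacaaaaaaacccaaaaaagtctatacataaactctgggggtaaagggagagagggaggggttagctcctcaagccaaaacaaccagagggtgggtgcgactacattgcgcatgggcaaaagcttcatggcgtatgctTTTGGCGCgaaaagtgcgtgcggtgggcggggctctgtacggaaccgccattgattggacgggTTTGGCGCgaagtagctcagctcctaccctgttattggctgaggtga
Mcm5, chr8:75109259-75109508, plus strand: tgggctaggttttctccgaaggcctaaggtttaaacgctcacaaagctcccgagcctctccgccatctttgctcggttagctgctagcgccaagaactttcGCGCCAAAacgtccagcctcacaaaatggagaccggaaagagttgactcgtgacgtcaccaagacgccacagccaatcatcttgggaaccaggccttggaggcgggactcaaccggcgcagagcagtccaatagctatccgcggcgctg
Cdc6, chr11:98907901-98908150, plus strand: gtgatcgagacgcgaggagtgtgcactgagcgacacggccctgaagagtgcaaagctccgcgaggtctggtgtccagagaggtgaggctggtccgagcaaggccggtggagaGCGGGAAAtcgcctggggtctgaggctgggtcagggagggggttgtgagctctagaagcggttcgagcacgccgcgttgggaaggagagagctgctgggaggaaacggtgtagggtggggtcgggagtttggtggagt
The matches begin 110 and 47 bases before the start of Mcm6, 149 before that of Mcm5 and 138 before that of Cdc6. A match describes these letters only and shows no binding.

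Interferon-type letters were no more frequent in the promoters of called genes than in all promoters. The interferon-stimulated response element (GAAA, any pair of bases, then GAAA) was in 3.1% of all promoters. It was in 3 of 124 called lower in A/J (2.4%) and in 1 of 50 called higher (2.0%). The interferon-gamma activated sequence (TTCNNNGAA, which reads alike on both strands and may overlap other matches) was in 7.4% of all promoters. It was in 9 of 124 called lower (7.3%) and in 2 of 50 called higher (4.0%). Counts this small cannot show a moderate difference. Fcgr4, an IgG receptor gene with a lower rise in A/J, carries the response element once, 73 bases before its start, and is shown as a called gene of that kind with a match, in capitals.
Fcgr4, chr1:171018676-171018925, plus strand: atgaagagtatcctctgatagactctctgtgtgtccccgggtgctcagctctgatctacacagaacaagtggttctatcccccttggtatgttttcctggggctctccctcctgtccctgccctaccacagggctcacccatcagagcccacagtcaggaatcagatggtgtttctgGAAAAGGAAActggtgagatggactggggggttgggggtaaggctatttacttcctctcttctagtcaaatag

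Among genes of other lymphocytes, 2 of 15 B cell and 2 of 16 T cell genes were called, all lower in A/J, and none of 10 plasma cell genes was called by limma, with 1 at an unadjusted p under 0.05. Of the 15 B cell genes 9 rose in C57BL/6 and none in A/J, where 1 fell, and 2 were called for the strain difference, Fcer2a and Cd22. Fcer2a, the low-affinity IgE receptor CD23, read 7.0, 6.62 and 6.63 (ovalbumin) and 5.28, 5.37 and 5.48 (resiquimod) in A/J. In C57BL/6 it read 6.54, 6.46 and 6.55 with ovalbumin and 6.45, 6.25 and 6.43 with resiquimod. The A/J groups were more than 1 apart and the C57BL/6 groups nearly touched, a difference of -1.23 ± 0.20 (limma adjusted p = 0.0097) seen in both probe sets. Ms4a1, the B cell antigen CD20, rose by 1.98 ± 0.35 in C57BL/6 with 0.65 ± 0.35 in A/J, without a call for the difference (-1.34 ± 0.50, limma adjusted p = 0.25).

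On the B cell list 14 of 15 genes had a difference below 0, and 9 of the 15 had an unadjusted p under 0.05. The B cell list varied between arrays of a group. Its mean was 7.09, 5.95 and 6.75 on the A/J ovalbumin arrays and 7.13, 7.02 and 6.49 on the A/J resiquimod arrays, and the groups overlapped. Its median difference of -0.95 became -0.61 without A/J resiquimod array 3 and -0.29 without both liver-transcript arrays. Cd22, an inhibitory coreceptor of B cells, lost its call in 9 of 18 fits (-1.0 ± 0.21, values from -1.14 to -0.82). The 10 plasma cell genes had a median of 0.08, with 9 above 0.

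Of 16 T cell genes 13 had a difference below 0 (median -0.39), and 8 of the 16 had an unadjusted p under 0.05. The called T cell genes were Cd2 and Cd8b1. Cd2, an adhesion receptor of T and NK cells, read 7.61, 7.19 and 7.57 (ovalbumin) and 7.92, 7.50 and 7.57 (resiquimod) in A/J, which overlap, and 7.05, 6.96 and 6.84 and then 8.12, 8.31 and 8.27 in C57BL/6, which do not. The difference was -1.08 ± 0.19 (limma adjusted p = 0.014). Cd8b1, the beta chain of CD8, differed by -1.14 ± 0.21 (lost without A/J ovalbumin 1, C57BL/6 ovalbumin 2, or C57BL/6 resiquimod 1 or 3, with values from -1.09 to -1.03), while Cd3e, a chain of the T cell receptor complex, differed by -0.33 ± 0.12 and Cd4 by -0.24 ± 0.14 without a call.

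Ccr6, the receptor for the chemokine Ccl20 on B cells and subsets of T cells, rose in C57BL/6 with no call in A/J. It read 6.01, 6.05 and 5.79 (ovalbumin) and 7.21, 7.17 and 7.24 (resiquimod) there. In A/J it read 5.92, 5.77 and 5.82 and then 6.11, 5.98 and 5.32. The third A/J resiquimod array lay below the ovalbumin arrays and the other two above them. The difference was -1.29 ± 0.20 (limma adjusted p = 0.0080) and was called without the liver-transcript arrays as well (-1.01).

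Of the mucus and goblet cell genes, Itln1 and Guca2a fell in A/J from a level that C57BL/6 ovalbumin lungs did not have. Itln1, the lectin intelectin-1 of goblet cells, read 9.65, 9.29 and 9.52 in A/J ovalbumin lungs and 6.72, 6.08 and 7.09 after resiquimod. In C57BL/6 it read 4.55, 4.36 and 4.84 and then 4.25, 4.31 and 3.87. The difference was -2.41 ± 0.29 (limma adjusted p = 0.00074). Guca2a, the peptide guanylin, fell by 2.03 ± 0.15 in A/J from 6.11, 6.21 and 6.27 to 4.39, 4.15 and 3.96, while all 6 C57BL/6 arrays lay between 3.91 and 4.17. Its difference was -2.06 ± 0.21 (limma adjusted p = 0.00015).

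Other mucus and goblet cell genes fell in both strains. Of 25 on the list, 14 fell in A/J and 13 in C57BL/6, and 3 were called for the strain difference, the third being St3gal6, a sialyltransferase (-0.44 ± 0.09, lost in 15 fits, values from -0.48 to -0.39). Muc5ac, the gel-forming airway mucin, fell by 1.96 ± 0.24 in A/J and by 1.94 ± 0.24 in C57BL/6, with a 95% interval of the difference from -0.75 to 0.69. Clca1, a secreted goblet cell protein, fell by 2.42 ± 0.48 and by 2.59 ± 0.48 (interval from -1.26 to 1.61), and Chil4, a chitinase-like protein of macrophages and epithelium, by 5.39 ± 0.40 and by 4.72 ± 0.40 (interval from -1.87 to 0.53). Ccl11, eotaxin-1, fell by 2.38 ± 0.22 and by 2.18 ± 0.22 (interval from -0.86 to 0.46). These intervals are wide, and a moderate difference would be missed.

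Of 11 eosinophil genes 3 were called, all lower in A/J, and none is a core gene. Siglecf, a sialic acid receptor of eosinophils and alveolar macrophages, read 6.42, 6.80 and 6.94 (ovalbumin) and 6.34, 5.30 and 6.19 (resiquimod) in A/J, and 5.91, 5.92 and 5.61 and then 6.57, 6.64 and 6.35 in C57BL/6. It fell in A/J and rose in C57BL/6, with no overlap in either strain, and A/J resiquimod array 2 was the lowest. The difference was -1.49 ± 0.28 (limma adjusted p = 0.023), and the call was lost without A/J ovalbumin array 3 (-1.38), C57BL/6 ovalbumin array 3 (-1.38) or C57BL/6 resiquimod array 1 (-1.46). The granule genes Prg2 (major basic protein; -0.98 ± 0.21) and Epx (eosinophil peroxidase; -0.54 ± 0.12) fell in A/J from weak signals and lost the call in 14 and 15 fits.

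Some myeloid surface genes fell with resiquimod in A/J and not in C57BL/6. Fcgr2b encodes the inhibitory IgG receptor of B cells and myeloid cells. It read 9.02, 8.93 and 9.19 (ovalbumin) and 7.93, 7.65 and 7.47 (resiquimod) in A/J, against 8.60, 8.88 and 8.89 and then 8.47, 8.86 and 8.54 in C57BL/6. The A/J groups were separated and the C57BL/6 groups overlapped. The difference was -1.20 ± 0.18 (limma adjusted p = 0.0067), with all 5 probe sets below 0 and 4 called. Fcgr4, an activating IgG receptor of monocytes and neutrophils, rose in both strains, by 2.59 ± 0.14 in A/J and 3.50 ± 0.14 in C57BL/6, a difference of -0.90 ± 0.20 that lost its call in 13 fits (values from -0.97 to -0.84).

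Itgax, the integrin CD11c of dendritic cells and alveolar macrophages, read 8.92, 9.00 and 9.14 (ovalbumin) and 8.41, 8.15 and 8.17 (resiquimod) in A/J. In C57BL/6 it read 7.95, 8.40 and 8.27 and then 8.56, 8.39 and 8.56. The fall in A/J (by 0.77 ± 0.11) separated the groups, and the 0.30 ± 0.11 in C57BL/6 did not. The difference was -1.07 ± 0.16 (limma adjusted p = 0.0050). Fscn1, the actin bundler of mature dendritic cells, differed by -1.08 ± 0.17, from 0.70 ± 0.12 in C57BL/6 against -0.38 ± 0.12 in A/J.

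Most genes on their lists were not called. Of 30 monocyte and macrophage genes 3 were called and of 17 dendritic cell genes 2, all lower in A/J, Itgax on both lists. The difference was below 0 for 20 of the 30 (median -0.10) and for 15 of the 17 (median -0.26). An unadjusted p under 0.05 was found for 13 of the 30 and for 5 of the 17. Among 19 genes of alternatively activated macrophages, 16 fell in A/J and 14 in C57BL/6, and 1 was called for the strain difference, the lectin Cd209d (-1.07 ± 0.23, lost in 9 fits, values from -1.24 to -0.97). Of 14 MHC class II presentation genes 13 had a difference below 0 (median -0.47), 8 fell in A/J and none in C57BL/6, yet none was called for the difference by limma, and 10 had an unadjusted p under 0.05. Cd300ld, an activating myeloid receptor, picked after its values were seen, rose from 5.74, 5.53 and 5.56 to 6.98, 6.82 and 7.09 in C57BL/6 and lay between 4.69 and 5.01 on all 6 A/J arrays (difference -1.22 ± 0.13, limma adjusted p = 0.00041).

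A set of 12 genes changed in opposite directions in the strains, with a call in each strain and for the difference. Emcn, the endothelial sialoprotein endomucin, read 8.15, 8.12 and 8.33 (ovalbumin) and 7.77, 7.71 and 7.52 (resiquimod) in A/J. In C57BL/6 it read 8.28, 8.16 and 8.36 and then 8.96, 8.84 and 9.17. The ovalbumin groups of the strains overlapped, and the resiquimod groups lay on either side of them. The difference was -1.26 ± 0.15 (limma adjusted p = 0.00049).

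Cd34, the sialomucin of endothelium and blood progenitors, had the same pattern with a narrower spread. It read 9.39, 9.21 and 9.30 (ovalbumin) and 8.76, 8.76 and 8.72 (resiquimod) in A/J, and 8.89, 9.09 and 9.04 and then 9.50, 9.53 and 9.80 in C57BL/6, a difference of -1.16 ± 0.11 (limma adjusted p = 0.00013). Lxn, the carboxypeptidase inhibitor latexin, differed by -1.14 ± 0.13, and Ddah1, which degrades the nitric oxide synthase inhibitor dimethylarginine, by -1.31 ± 0.18 with all 5 probe sets below 0. The others were Siglecf, Uhrf1 and Mcm3 (above), Mest, an imprinted gene, Emp1, an epithelial membrane protein, and Gsr, glutathione reductase, which fell in A/J and rose in C57BL/6, and Gadd45b and Aldh6a1, which did the reverse and lost their calls in 7 fits each. Cd34 and the others of the 12 that are on no list were picked after their values were seen.

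Endothelial genes as a group had no common shift. Emcn was the only one of 24 called, and the median difference was 0.04 with 14 above 0. Pecam1, a general endothelial adhesion molecule, differed by -0.22 ± 0.15, and Cdh5, the endothelial cadherin, by -0.00 ± 0.16.

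**Figure D4:**
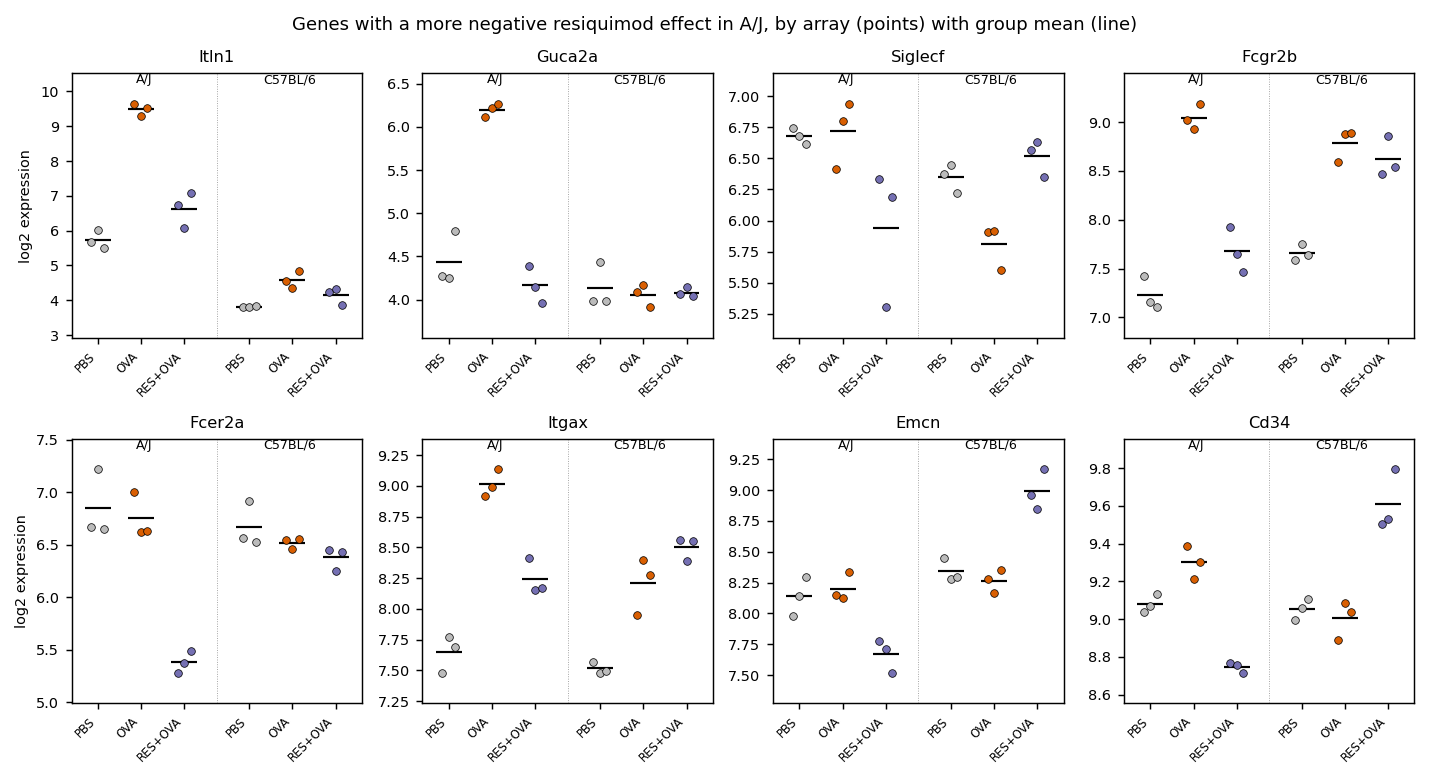
Log2 expression of 8 genes with a lower change in A/J on the 18 arrays (points; OVA, ovalbumin; RES+OVA, resiquimod plus ovalbumin; lines, means of 3 arrays; each panel has its own axis). Itln1, Guca2a, Fcgr2b, Fcer2a and Itgax fall with resiquimod in A/J, and Siglecf, Emcn and Cd34 fall in A/J while rising in C57BL/6.

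Collagen VI fell in both strains, and further in A/J. Its chains assemble a microfibril network around cells and basement membranes. Of 22 collagen genes 14 fell in A/J and 13 in C57BL/6, and 4 were called for the difference: Col6a3, Col6a2, Col6a1 and Col18a1. Col6a2 read 10.82, 10.56 and 10.79 (ovalbumin) and 9.05, 8.53 and 8.59 (resiquimod) in A/J, and 10.31, 10.49 and 10.36 and then 9.30, 9.34 and 9.27 in C57BL/6. All arrays were separated within each strain, and the 3 A/J resiquimod arrays were the lowest of all. It fell by 2.00 ± 0.11 and by 1.08 ± 0.11, a difference of -0.91 ± 0.16 (limma adjusted p = 0.014). Col6a3 differed by -1.03 ± 0.18 and Col6a1 by -0.68 ± 0.13 (lost in 6 fits, values from -0.78 to -0.59). Col18a1, whose fragment is endostatin, differed by -0.58 ± 0.12 (lost in 7, values from -0.64 to -0.52). Pcolce, the enhancer of procollagen C-proteinase, is on no list and was picked after its values were seen; it fell by 1.91 ± 0.12 in A/J and by 0.82 ± 0.12 in C57BL/6. None of the 4 collagens was called without the liver-transcript arrays, where Col6a2 differed by -0.79 and Col6a3 by -0.87.

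Other genes near the top of the negative differences share no list. Slc13a3, a sodium-coupled dicarboxylate transporter, rose from 4.84, 4.57 and 4.25 to 6.60, 6.46 and 6.44 in C57BL/6 and read 4.20, 4.42 and 4.19 and then 4.51, 4.59 and 4.40 in A/J (difference -1.71 ± 0.16, limma adjusted p = 6.6e-05). Glp1r, the receptor for glucagon-like peptide 1, rose by 1.44 ± 0.15 in C57BL/6 with -0.03 ± 0.15 in A/J. Gngt2 rose by 1.69 ± 0.20 in C57BL/6 with 0.34 ± 0.20 in A/J. Its difference was -1.35 ± 0.28 (lost in 9 fits, values from -1.53 to -1.17). Ido1, the tryptophan-degrading enzyme induced by interferon, rose in both strains, by 0.49 ± 0.09 in A/J and 1.33 ± 0.09 in C57BL/6 (difference -0.83 ± 0.13). Cxcl9, a ligand of the type 1 T cell receptor Cxcr3, differed by -1.16 ± 0.24 but lost its call in 10 fits (values from -1.34 to -1.01), and its 2 probe sets had opposite signs. Its relative Cxcl10 fell by 1.17 ± 0.27 in A/J with 0.15 ± 0.27 in C57BL/6, without a call for the difference (-1.32 ± 0.38, limma adjusted p = 0.12). A smaller difference was that of Il18rap (-0.50 ± 0.11, lost in 13 fits, values from -0.55 to -0.44). Il18rap rose in both strains, by less in A/J.

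Genes with a higher change in A/J were fewer and shared less. Lox, lysyl oxidase, which crosslinks collagen and elastin, read 8.69, 8.87 and 8.95 in A/J ovalbumin lungs and 10.31, 10.43 and 10.91 after resiquimod. In C57BL/6 it read 8.62, 9.00 and 8.72 and then 8.75, 8.42 and 8.59. Resiquimod raised it in A/J with no overlap, and the C57BL/6 groups overlapped. The difference was 1.91 ± 0.21 (limma adjusted p = 0.00041), and Lox was the only gene called among 24 of fibroblasts and elastic matrix, whose median difference was -0.24.

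Galnt15, an enzyme that starts mucin-type O-glycans, followed Lox closely in size. It read 6.53, 6.72 and 6.64 (ovalbumin) and 8.39, 8.21 and 8.77 (resiquimod) in A/J, and 6.82, 7.03 and 6.98 and then 7.12, 6.97 and 6.87 in C57BL/6. The difference was 1.78 ± 0.18 (limma adjusted p = 0.00014) in both of its probe sets. A2ml1, a protease inhibitor of the alpha-2-macroglobulin family, rose in A/J from 5.48, 5.91 and 5.65 to 6.67, 6.96 and 7.43. In C57BL/6 it read 8.43, 7.88 and 8.48 and then 7.80, 7.39 and 7.45. Its difference was 2.06 ± 0.30 (limma adjusted p = 0.0050), and its level was higher in C57BL/6 in the ovalbumin groups.

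Ankrd63 and Disp2 stand close to each other in the RefSeq gene order and differed in opposite directions. Ankrd63, an ankyrin repeat gene, fell from 7.28, 7.59 and 7.22 to 5.71, 6.02 and 5.51 in C57BL/6, while all 6 A/J arrays lay between 3.40 and 3.71, near the weakest signals. Disp2, a relative of the Hedgehog release protein Dispatched, rose by 1.43 ± 0.17 in C57BL/6 with -0.21 ± 0.17 in A/J. The differences were 1.76 ± 0.19 and -1.64 ± 0.24, the latter in 2 of 3 probe sets by sign.

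Further genes that rose in A/J with no call in C57BL/6 were Tubb1, the tubulin of platelets and megakaryocytes (difference 1.22 ± 0.22), Ms4a4d, a membrane protein of the CD20 family (1.13 ± 0.19), Cyp2d22, a cytochrome P450 (0.94 ± 0.14), and Fgfbp1, a carrier of fibroblast growth factors (0.92 ± 0.16). Klf15, a transcription factor of metabolism, differed by 1.31 ± 0.26 (lost in 5 fits, values from 1.03 to 1.50). Il22ra2, the soluble binding protein of interleukin 22, differed by 1.02 ± 0.19 (lost without A/J ovalbumin 1, C57BL/6 ovalbumin 2, or C57BL/6 resiquimod 2 or 3, with values from 0.92 to 1.03), and Sphk1, sphingosine kinase 1, by 0.94 ± 0.17 (lost without A/J ovalbumin 1, C57BL/6 ovalbumin 2 or C57BL/6 resiquimod 3, with values from 0.84 to 0.94).

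A list of 18 glucocorticoid-responsive genes had every difference above 0 but no call by limma, and 11 had an unadjusted p under 0.05. Such genes, for example Fkbp5, Tsc22d3, Zbtb16 and Per1, are transcribed when the glucocorticoid receptor is active. The median difference was 0.68, with medians of 0.77 in A/J and 0.07 in C57BL/6, and 9 of the 18 rose in A/J against 1 in C57BL/6. The mean of the 18 was 9.32, 9.47 and 10.04 on the A/J resiquimod arrays and at most 8.95 on every other array. The highest value is that of A/J resiquimod array 3, and the median difference was 0.53 without it and 0.49 without both liver-transcript arrays. Acute phase genes, several of them made in liver, had a median of 0.81 that turned to -0.25 without A/J resiquimod array 3; the 1 call on that list, Cp (ceruloplasmin), was lost in 17 fits (values from 0.52 to 0.77).

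**Figure D5:**
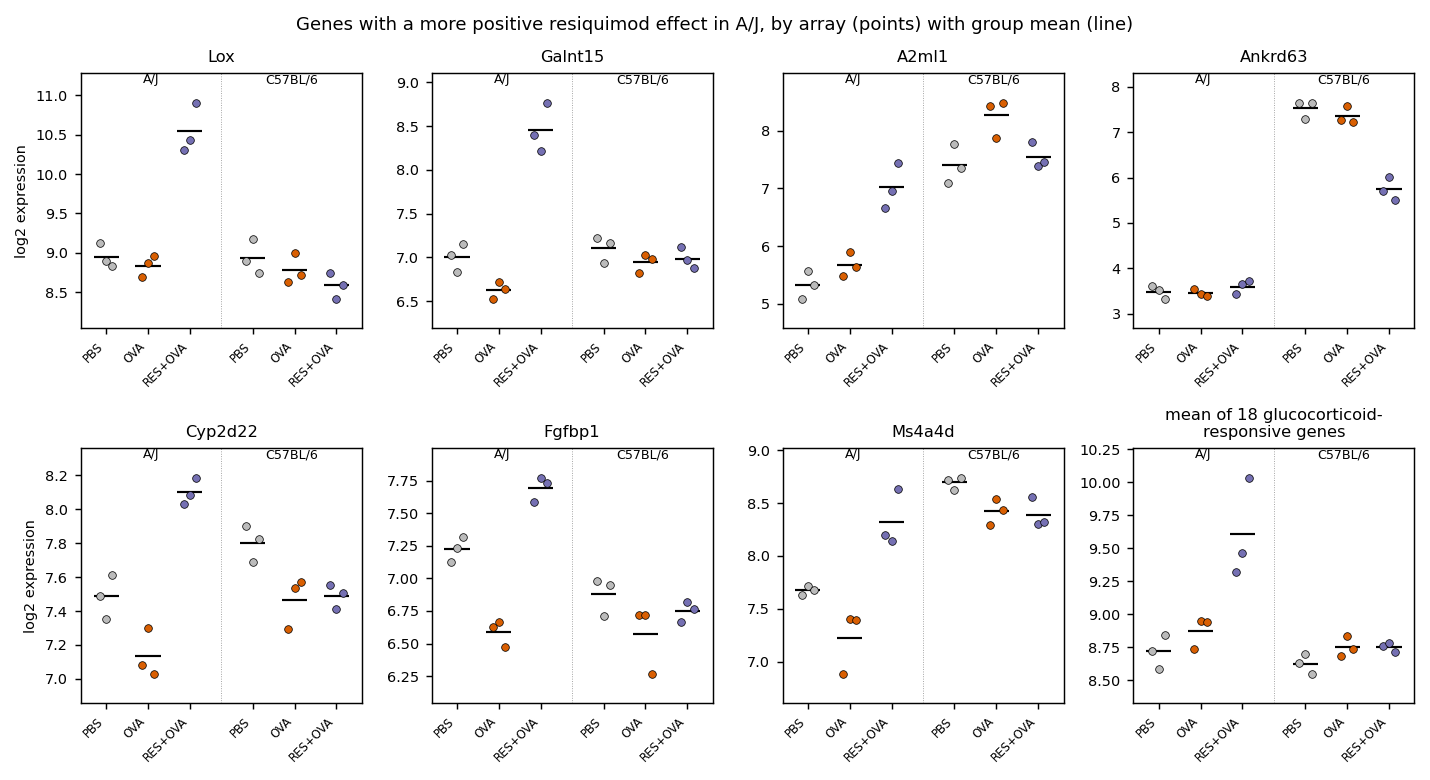
Log2 expression of 7 genes with a higher change in A/J, and the mean of 18 glucocorticoid-responsive genes, on the 18 arrays (points; OVA, ovalbumin; RES+OVA, resiquimod plus ovalbumin; lines, means of 3 arrays; each panel has its own axis). Lox and Galnt15 rise in A/J alone, Ankrd63 falls in C57BL/6 while A/J stays near the weakest signals, and A/J resiquimod array 3 is the highest point of the last panel.

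The Tlr7 pathway list and the list of type I interferon-stimulated genes held no called strain difference. Ido1, induced by interferon and on neither list, was called (above). Tlr7 read 5.03, 5.07 and 4.95 (ovalbumin) and 5.76, 5.72 and 5.59 (resiquimod) in A/J, and 5.18, 4.95 and 4.96 and then 6.12, 6.36 and 5.85 in C57BL/6. It rose in both strains, and the difference was -0.41 ± 0.15, with a 95% interval from -0.72 to -0.10 and a limma adjusted p of 0.23. Of 26 genes of the pathway none was called by limma and 4 had an unadjusted p under 0.05 (median -0.06). Irf7 rose by 1.19 ± 0.12 in A/J and 1.10 ± 0.12 in C57BL/6. Of 33 type I interferon-stimulated genes none was called by limma and 7 had an unadjusted p under 0.05, with 16 above and 17 below 0. Ifng, interferon gamma, differed by -0.43 ± 0.39, and its signal was weak on all arrays. Other lists with no call by limma were 10 interferon-inducible GTPases (median -0.12, 2 with an unadjusted p under 0.05), 16 MHC class I and immunoproteasome genes (-0.23, 6) and 19 type 2 cytokine and receptor genes (-0.02, 2). The same held for 20 neutrophil genes (median 0.28, 8 with an unadjusted p under 0.05) and 15 smooth muscle genes (0.16, 2). Over all genes the count at this level was 2767 of 18193, by the mean of a gene's probe sets. The share of the Tlr7 pathway list was near that.

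Of 17 motile cilia genes, 16 had a difference above 0 (median 0.27), 5 fell in C57BL/6 and 1 rose in A/J, and Ak7, an adenylate kinase of cilia, was called (0.64 ± 0.12, lost in 5 fits, values from 0.56 to 0.71). The alveolar type 2 list held 1 call, Lpcat1, an enzyme of surfactant lipid (0.42 ± 0.09, lost in 15 fits, values from 0.38 to 0.46).

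The PBS arrays, which enter the strain difference only through the estimate of spread, gave the baseline of the called genes. After PBS 1640 of 18193 genes differed between A/J and C57BL/6 (9.01%), and among the 225 called genes 64 did (28.4%). Both kinds of call rest on the same estimate of spread for each gene, so these shares are not independent of each other. The A/J minus C57BL/6 level after PBS was -0.62 for Klrk1 and -1.0 for Klra8. It was 1.26 for Cd207, the lectin langerin of dendritic cells, a core gene picked after its values were seen, with a strain difference in the response of -0.97 ± 0.15. For Cd34, Mcm5 and Lox it was 0.03, 0.11 and 0.01. The C57BL/6 PBS arrays read 7.04, 7.27 and 6.90 for Nnt, a gene disrupted in some C57BL/6 substrains, against 8.27 to 8.45 on the other 6 C57BL/6 arrays. Wdfy1, also on the list of substrain markers, read 6.33, 6.12 and 6.47 against 7.30 to 7.50. The mean of the 7 measured markers overlapped, with 5.87 to 6.03 against 5.99 to 6.26. Whether the PBS mice were of another substrain, and the part of this in the PBS baseline, was not tested. For Nnt the C57BL/6 resiquimod group differed from the C57BL/6 ovalbumin group by -0.06 ± 0.09.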

How the data were processed

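Whole-lung RNA was measured on 18 Affymetrix mouse expression arrays, 3 per group, labelled biological replicates. The deposited values are log2 expression per probe set, made by the authors with RMA in the affy package, per the submitters' processing notes; the versions are not given in the sources used here. RMA fits probes over all arrays together and compresses differences of weak probe sets, so changes near the bottom of the scale are understated. The 64 control probe sets were left out, and no other filter was applied to the remaining 45037.

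A model of 6 group means was fitted to all 18 arrays with lmFit and eBayes of limma 3.58.1 in R 4.3.3 (12 residual and 4.3 prior degrees of freedom). The strain difference in the resiquimod response was its interaction contrast, called at a Benjamini-Hochberg adjusted p under 0.05 over all 45037 probe sets. A gene's values are those of 1 probe set, the brightest on average among those that name no other gene. Intervals are 95% intervals of the fit. The labels do not say how many animals an array holds or whether the experiment was repeated, so the p-values cover the spread among these 18 arrays and nothing else. The number of arrays limits the precision.

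Named genes were the 15 largest called differences in each direction, up to 4 called members of each gene list, and a short set of allergen, interferon and cytotoxic genes; other members named from a list were chosen after their values were seen. The members and lists were chosen with earlier results of these data known, and the liver and motif searches were added after seeing the data. Lists are described by counts and medians without a test. The replicate numbers were checked for pairing: deviations from the group means of same-numbered arrays had correlations of 0.26, 0.37 and -0.26 in A/J and -0.45, -0.48 and 0.38 in C57BL/6, so the numbers do not pair the arrays and no block was used. Alternatives changed the arrays, normalization, filter, moderation, probe set rule and block.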

Additional observations from a re-analysis of the deposited data

Results flagged for a closer look

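The strain difference was itself tested, and 378 probe sets differed between the strains in their change with resiquimod. Of the genes among them, 12 changed in opposite directions with a call in each strain.

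In 10 of these 12 the A/J change was negative and the C57BL/6 change positive. The strain differences were -1.49 for Siglecf, -1.31 for Ddah1, -1.26 for Emcn, -1.18 for Uhrf1, -1.16 for Cd34, -1.14 for Lxn, -0.94 for Mest, -0.88 for Mcm3, -0.60 for Emp1 and -0.52 for Gsr. Lxn read 8.89, 9.01 and 9.01 (ovalbumin) and 8.64, 8.60 and 8.30 (resiquimod plus ovalbumin) in A/J, and 9.18, 9.27 and 9.14 and then 9.85, 9.77 and 10.02 in C57BL/6, with no overlap in either strain. Ddah1 read 7.31, 7.33 and 7.55 and then 6.80, 7.01 and 6.77 in A/J, and 7.16, 7.25 and 7.35 and then 7.89, 7.81 and 8.38 in C57BL/6, again with no overlap. Gadd45b, a growth arrest and DNA damage gene, and Aldh6a1, an aldehyde dehydrogenase of valine breakdown, went the other way, with differences of 0.61 and 0.67, and each lost its call in 7 of the 18 fits without 1 array (values from 0.55 to 0.71 and from 0.58 to 0.75). Siglecf lost its call in 3 fits, and the other 9 genes kept theirs in all 18.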

How the results depend on the processing

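The alternatives were followed for 67 called genes: those named by the rule and the 12 with opposite changes in the strains. None of them reversed, but they were picked by their calls in the same arrays, so this is no separate support. The count of 378 probe sets (65 genes higher and 160 lower in A/J) became 87 (10 and 46) with the 12 arrays alone, 730 (164 and 268) with trend and robust moderation, 6 (0 and 5; 4198 at an unadjusted p under 0.05) without the arrays with squamous transcripts and, an alternative added after seeing the data, 83 (9 and 41) without those with liver transcripts. Moving the arrays to a common median, repeating quantile normalization, array weights, the filter at the 25th percentile, the squamous covariate, and the added squamous and liver covariates gave 300 to 463 probe sets, and the mean of a gene's probe sets gave 302 genes. Without 1 array the count ranged from 138 to 636, with 18 to 124 genes higher and 62 to 233 lower. With the replicate number as a block within strain it was 255 (42 and 105), and with a block common to the strains 385. Whether these numbers pair the arrays is not known. The A/J response of 3206 probe sets fell to 574 without squamous and 2067 without liver transcripts (2212 to 3174 without 1 array), and the C57BL/6 response of 3520 to 1398 without squamous transcripts (2259 to 3649). The cause of these moves was not tested, beyond the fewer arrays. Of these 67 genes, 37 lost the call with 12 arrays, 38 without liver and 63 without squamous transcripts, and 1 under the squamous covariate. Groups of 3 arrays limit all values, and Klra7, Klra8 in A/J, Ankrd63 in A/J, Prg2 and Epx lie near the weakest signals.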

Other observations

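Matrix protease and inhibitor genes had no called strain difference by limma, but 10 of 19 had an unadjusted p under 0.05, with 10 differences above 0 and 9 below. By the mean of a gene's probe sets, 2767 of all 18193 genes had such a p. The 16 complement genes had a median difference of -0.05 and none with an unadjusted p under 0.05. Of 16 club cell genes 15 had a difference above 0 (median 0.21), none was called by limma and 4 had an unadjusted p under 0.05.

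The 13 skeletal muscle genes, which lung tissue itself scarcely expresses, all had a difference below 0 with a median of -1.36, and none was called by limma or had an unadjusted p under 0.05. The median became -0.05 without the arrays with liver transcripts, 0.66 without those with squamous transcripts, and between -2.86 (without A/J ovalbumin array 2) and 0.05 (without C57BL/6 resiquimod array 2) without 1 array. The list's mean read 9.34, 4.57 and 7.66 on the A/J ovalbumin arrays and 4.21, 8.49 and 4.09 on the C57BL/6 resiquimod arrays.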
